A study of Mus musculus with 9 samples.

Results

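Pou5f1, Nanog, Utf1, Zscan10, Sall4, Sall1, Lin28a and Lin28b are nuclear factors and RNA-binding proteins that pluripotent mouse cells are known to express. These 8 genes, of 18193 measured, were followed in 3 groups of cultures. They were chosen by name, through array probe sets whose single annotated symbol was one of them. This gave 13 probe sets, and for each gene the one with the highest mean over the 9 arrays is reported unless another is named.

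The groups were mouse embryonic stem cells (ESCs), epiblast stem cells (EpiSCs) treated with IWP2, and EpiSCs given vehicle, with 3 biological replicates each and 1 Affymetrix Mouse Genome 430 2.0 array per replicate. IWP2 inhibits Porcupine, the enzyme that lipidates Wnt proteins for secretion, so the study asks what EpiSCs express when their own Wnt proteins are not released. All cultures were of the strain C57BL/6 and no genetic change is recorded for any of them. The EpiSCs grew in N2B27 with Activin A and bFGF on plates coated with gelatine and serum, and the ESCs in N2B27 with LIF and Wnt3a on gelatine. Cell type and medium therefore differ together in each comparison with ESCs and cannot be told apart. The sources used here do not give the vehicle, the dose of IWP2, its duration or the cell lines. Nothing says that replicates came from different lines, so the p-values measure the spread between these cultures and no more.

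Pou5f1, also called Oct4, and Nanog are homeodomain proteins at the centre of the pluripotency network. Oct4 binds DNA together with Sox2 at many genes of that network, its own and Nanog among them. Utf1 is a chromatin-associated protein, Zscan10 a SCAN domain zinc finger factor, and Sall4 and Sall1 are spalt zinc finger factors that bind the NuRD histone deacetylase complex. Lin28a and Lin28b bind the precursors of let-7 microRNAs and block their maturation, so that the targets of let-7 are kept from repression. ESCs resemble the naive state of the embryo before implantation and EpiSCs the primed state of the epiblast after it.

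The promoters of Pou5f1, Nanog and Utf1 are shown because these 3 genes had the same order of the groups, with the highest signal in ESCs and the lowest in EpiSCs with vehicle. Each stretch runs from 250 bases before the start of the gene to 50 after it, is taken from RefSeq on assembly GRCm38.p6 and lies on the plus strand. Pou5f1 is at chr17:35505782-35506081, Nanog at chr6:122707239-122707538 and Utf1 at chr7:139943606-139943905. Capitals mark the GC box GGGCGG in Pou5f1 and Utf1, and in Nanog the octamer-type motif TTTGCAT followed by any 1 base and the Sox-type motif ACAATG.
Nanog: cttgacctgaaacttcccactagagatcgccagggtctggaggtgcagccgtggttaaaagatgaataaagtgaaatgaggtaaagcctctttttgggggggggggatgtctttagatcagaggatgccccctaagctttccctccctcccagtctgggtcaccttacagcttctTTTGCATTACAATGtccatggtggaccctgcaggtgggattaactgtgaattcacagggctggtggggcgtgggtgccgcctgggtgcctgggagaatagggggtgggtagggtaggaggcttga
Pou5f1: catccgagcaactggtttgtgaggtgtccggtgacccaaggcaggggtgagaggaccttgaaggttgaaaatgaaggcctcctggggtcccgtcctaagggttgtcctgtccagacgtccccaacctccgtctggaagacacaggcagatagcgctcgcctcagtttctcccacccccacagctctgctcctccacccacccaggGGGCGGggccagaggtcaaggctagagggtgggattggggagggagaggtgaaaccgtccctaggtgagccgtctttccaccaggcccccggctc
Utf1: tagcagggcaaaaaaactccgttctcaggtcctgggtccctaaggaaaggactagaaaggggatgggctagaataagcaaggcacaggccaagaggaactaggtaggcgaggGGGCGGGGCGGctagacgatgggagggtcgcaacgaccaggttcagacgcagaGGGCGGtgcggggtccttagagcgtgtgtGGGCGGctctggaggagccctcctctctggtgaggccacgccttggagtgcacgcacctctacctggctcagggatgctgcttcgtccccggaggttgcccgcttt
Both strands were searched. The combined octamer and Sox motif was present in 1 of 27025 RefSeq promoters of this length, the one of Nanog, and its form was written down after that promoter had been read. TTTGCAT alone, which the combined motif contains, was present in 4.6% of the promoters and in 1 of the 7 genes with a promoter in the table. GGGCGG was present in 35.9% of the promoters and in 3 of the 7 genes, Pou5f1, Utf1 and Lin28a. CTTTGAT, 1 form of the Tcf/Lef motif, was present in 3.76% of the promoters and in 0 of the 7. Other forms of that motif were not searched, so this does not show that the 7 lack such a site. These matches describe the letters of the windows, and binding was not measured.

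The let-7 family is shown because Lin28 proteins act on it. The mature sequences are from RefSeq on GRCm38.p6, with let-7g at chr9:106178846-106178867 on the plus strand, let-7a at chr13:48538239-48538260 on the minus strand and miR-98 at chrX:151913229-151913250 on the plus strand. Capitals mark the seed, bases 2 to 8, which pairs with target RNAs. In the hairpin of let-7g, at chr9:106178840-106178927 on the plus strand, capitals mark GGAG, the element that the zinc knuckles of Lin28 are known to bind.
mmu-let-7g-5p: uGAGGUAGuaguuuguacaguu
mmu-let-7a-5p: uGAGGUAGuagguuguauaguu
mmu-miR-98-5p: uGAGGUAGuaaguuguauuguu
let-7g hairpin: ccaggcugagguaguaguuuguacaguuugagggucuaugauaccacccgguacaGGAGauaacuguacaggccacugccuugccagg
The seed GAGGUAG was shared by 10 of 11 mature family members, and GGAG was present in 9 of 12 family hairpins (75%), against 447 of all 1005 mouse hairpins (44.5%). The microRNAs themselves were not measured by these arrays.

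Values are log2 signals after the authors' RMA normalization, so a difference of 1 is a 2-fold difference. A gene is called when its limma p-value, adjusted by Benjamini-Hochberg over the 18193 genes, is under 0.05. Replicate arrays correlated with r of 0.997 to 0.998 across all probe sets. EpiSCs with IWP2 and with vehicle correlated with 0.982 to 0.985, and ESCs and EpiSCs with 0.927 to 0.931. The lower quartile of all values was 3.72, and signals below it are close to the floor of the arrays. The difference between the 3′ and 5′ control probe sets of actin, a sign of RNA quality, was 0.64 to 0.66 in ESCs, 0.64 to 0.69 in EpiSCs with IWP2 and 0.53 to 0.59 in EpiSCs with vehicle, and its part in the results was not tested. The naive state markers were higher in ESCs than in EpiSCs with vehicle for 7 of 7 genes (median 6.78) and the primed state markers lower for 6 of 6 (median -4.74), which fits the labels, and the counts were the same against EpiSCs with IWP2 (medians 6.79 and -4.34).

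All 8 genes were called between EpiSCs with IWP2 and with vehicle. Pou5f1, Nanog, Utf1 and Lin28b were higher with IWP2, and Zscan10, Sall4, Sall1 and Lin28a were lower. Among all genes 33.5% were called in this comparison, 16.6% higher and 16.8% lower. The median difference of the 8 genes was -0.04, against 0.03 for all genes. The 3 arrays with IWP2 did not overlap the 3 with vehicle for any of the 8, and did not for 47% of all genes. Between ESCs and EpiSCs with vehicle, 5 of the 8 were higher, 2 were lower and Sall4 was not called, where 66.6% of all genes were called, 38.7% higher and 27.9% lower. Their median was 0.56, against 0.12 for all genes. Of the 2 lower genes Lin28b lost its call under several alternatives described with it. With the mean of all probe sets of a gene 3 were lower, since Sall4 was then called (-1.08). Among all genes the excess of higher over lower ones was not seen with a filter on low signal. With it 4193 were higher and 4550 lower, against 7045 and 5078 without it. Between ESCs and EpiSCs with IWP2, 6 of the 8 were higher and 2 lower, where 62.1% of all genes were called, 35.2% higher and 26.9% lower. The median was 0.71, against 0.1. With the mean of all probe sets of a gene 5 were higher and 3 lower, since Sall4 was then called lower (-0.12, adjusted p = 0.044).

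**Figure D1:**
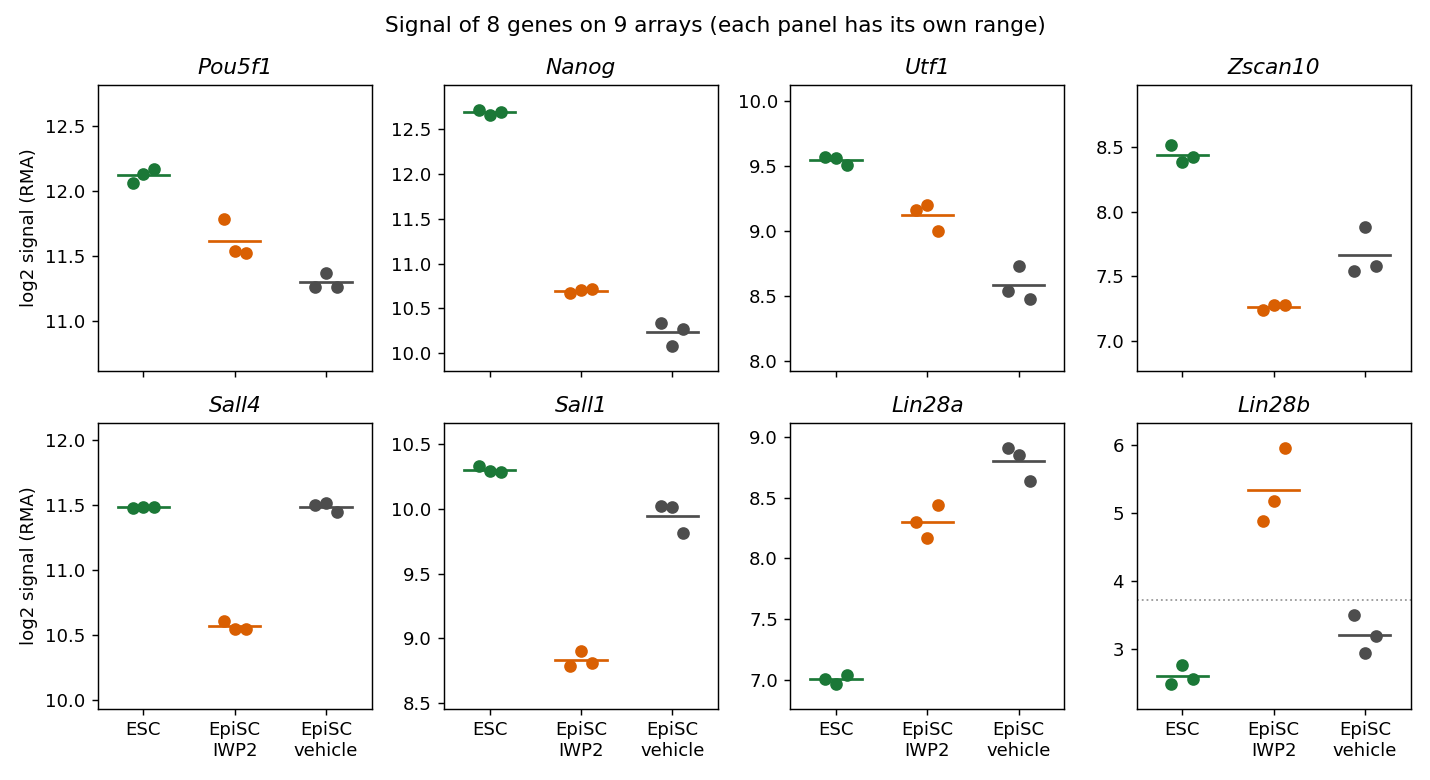
Log2 signal (y axis, a range of its own in each panel) of the 8 genes on each of the 9 arrays, by group (x axis); a point is 1 array and a bar the mean of 3. On the probe sets used, Sall4, Sall1 and Zscan10 were lowest in EpiSCs with IWP2 and Lin28b was highest there. On the second probe set of Sall4, not drawn here, ESCs were lowest. The dotted line marks the lower quartile of all values, 3.72, above which Lin28b lay in EpiSCs with IWP2 alone.

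The core factors Pou5f1 and Nanog were both higher with IWP2 by less than 1.5-fold, and Nanog was the member with the larger difference between ESCs and EpiSCs. Pou5f1, on chromosome 17, had signals of 12.06, 12.13 and 12.17 in ESCs, of 11.78, 11.54 and 11.52 in EpiSCs with IWP2, and of 11.26, 11.37 and 11.26 in EpiSCs with vehicle. The 3 groups did not overlap. Pou5f1 was 1.24-fold higher with IWP2 than with vehicle (log2 difference 0.31 ± 0.077 SE, adjusted p = 0.011), and 23% of all genes differed by more in size. ESCs had 1.77 times the signal of EpiSCs with vehicle (0.82 ± 0.077, adjusted p = 6.34e-06) and 1.42 times that of EpiSCs with IWP2 (adjusted p = 0.000219).

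Nanog, on chromosome 6, had signals of 12.72, 12.66 and 12.7 in ESCs, of 10.67, 10.7 and 10.72 in EpiSCs with IWP2, and of 10.34, 10.08 and 10.27 in EpiSCs with vehicle. The ESC arrays stood well apart from all EpiSC arrays, and both kinds of EpiSCs stood apart from each other by less. With IWP2 the signal was 1.38-fold higher than with vehicle (0.47 ± 0.07, adjusted p = 0.00069). In ESCs it was 5.52-fold higher than with vehicle (2.46 ± 0.07, adjusted p = 8.3e-10) and 3.99-fold higher than with IWP2 (2 ± 0.07, adjusted p = 3.4e-09). The combined octamer and Sox motif printed above lies 75 to 62 bases before the start of this gene. Pou5f1 and Nanog each had 1 probe set, so no other probes on the array check them, and whether retrocopies of these genes reach the probes was not tested.

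Utf1 and Zscan10 were both higher in ESCs but moved in opposite directions with IWP2. Utf1, on chromosome 7, had signals of 9.57, 9.56 and 9.51 in ESCs, of 9.16, 9.2 and 9 in EpiSCs with IWP2, and of 8.54, 8.73 and 8.48 in EpiSCs with vehicle. Its groups lay in the same order as those of Pou5f1 and Nanog, without overlap. It was 1.45-fold higher with IWP2 than with vehicle (0.54 ± 0.079, adjusted p = 0.000617), 1.95-fold higher in ESCs than with vehicle (0.97 ± 0.079, adjusted p = 2.3e-06) and 1.34-fold higher in ESCs than with IWP2 (0.42 ± 0.079, adjusted p = 0.00093). The other 2 probe sets of Utf1 gave differences between IWP2 and vehicle of 0.49 (adjusted p = 0.0118) and 0.44 (adjusted p = 0.014), and both were higher in ESCs than with vehicle, by 0.79 and 0.62. Between ESCs and IWP2 they gave 0.3 (adjusted p = 0.0488) and 0.18 (adjusted p = 0.185), so the dimmest of the 3 was not called there.

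Zscan10, also on chromosome 17, had signals of 8.51, 8.38 and 8.42 in ESCs, of 7.24, 7.28 and 7.28 in EpiSCs with IWP2, and of 7.54, 7.88 and 7.58 in EpiSCs with vehicle. The IWP2 arrays were the lowest of the 9 and close together, while the vehicle arrays spread more widely. Zscan10 was 1.32-fold lower with IWP2 than with vehicle (-0.4 ± 0.088, adjusted p = 0.00617). In ESCs it was 1.7-fold higher than with vehicle (0.77 ± 0.088, adjusted p = 3.08e-05) and 2.25-fold higher than with IWP2 (1.17 ± 0.088, adjusted p = 1.13e-06). It had 1 probe set.

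Sall4 and Sall1 were both about 2-fold lower in EpiSCs with IWP2 than in EpiSCs with vehicle. Sall4, on chromosome 2, had signals of 11.48, 11.49 and 11.49 in ESCs, of 10.61, 10.55 and 10.55 in EpiSCs with IWP2, and of 11.5, 11.52 and 11.45 in EpiSCs with vehicle. The IWP2 arrays were low and the ESC and vehicle arrays overlapped. With IWP2 it was 1.89-fold lower than with vehicle (-0.92 ± 0.05, adjusted p = 7.71e-07), a size that 4.28% of all genes exceeded. It was not called between ESCs and vehicle (0 ± 0.05, 95% confidence interval -0.11 to 0.11, adjusted p = 0.976) and was 1.88-fold higher in ESCs than with IWP2 (0.91 ± 0.05, adjusted p = 9.86e-08).

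The second probe set of Sall4 gave another order in ESCs. Its signals were 7.73, 7.73 and 7.75 in ESCs, 8.87, 8.87 and 8.93 in EpiSCs with IWP2, and 9.98, 9.86 and 9.84 in EpiSCs with vehicle. On it ESCs were the lowest group, and no groups overlapped. It was lower with IWP2 than with vehicle, as on the first probe set (-1 ± 0.06, adjusted p = 1.2e-06). It was also lower in ESCs than with vehicle (-2.16 ± 0.06, adjusted p = 4.63e-10) and than with IWP2 (-1.16 ± 0.06, adjusted p = 4.59e-08), where the first gave no call and a difference of 0.91. The fall with IWP2 was thus measured on both, and the direction of Sall4 in ESCs differed between them. Sall4 is known to be made in a long and a short splice form, and which forms each probe set reads was not analysed here.

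Sall1, on chromosome 8, had signals of 10.33, 10.29 and 10.28 in ESCs, of 8.79, 8.9 and 8.81 in EpiSCs with IWP2, and of 10.02, 10.01 and 9.81 in EpiSCs with vehicle. The IWP2 arrays were low, and the ESC and vehicle arrays lay apart by less. Sall1 was 2.17-fold lower with IWP2 than with vehicle (-1.12 ± 0.068, adjusted p = 1.71e-06), a size that 3.13% of all genes exceeded. In ESCs it was 1.28-fold higher than with vehicle (0.35 ± 0.068, adjusted p = 0.00122) and 2.77-fold higher than with IWP2 (1.47 ± 0.068, adjusted p = 2.86e-08). The second, dimmer probe set of Sall1 was called in the same directions in all 3 comparisons, with differences of -0.72, 0.53 and 1.24.

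**Figure D2:**
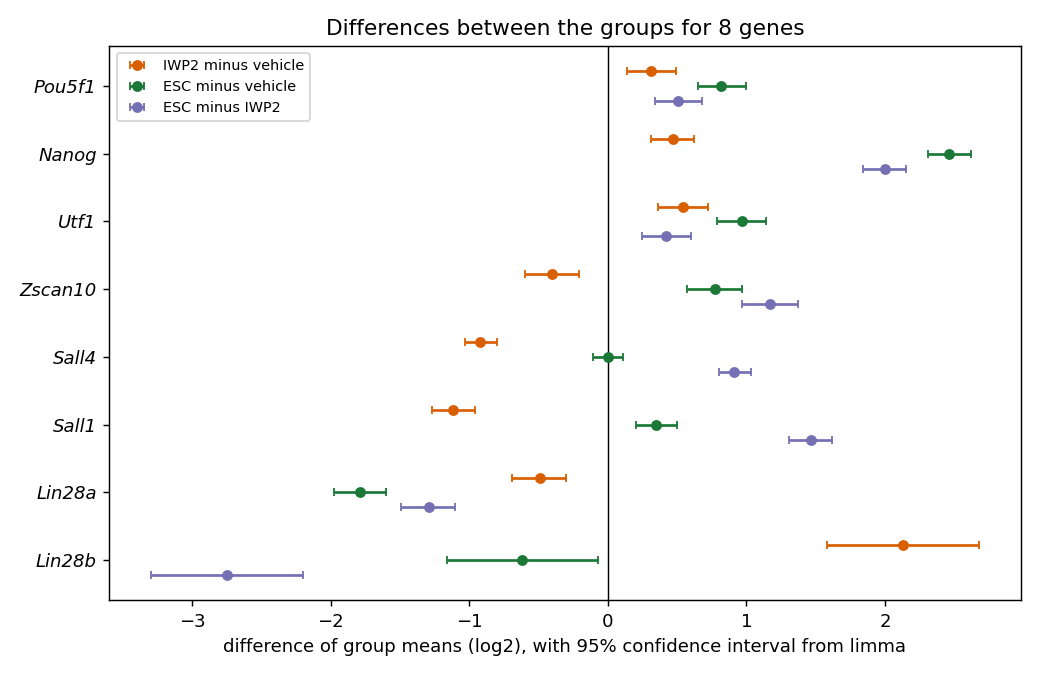
Differences of group means on the log2 scale (x axis) for the 8 genes (y axis), with 95% confidence intervals from limma; colours stand for IWP2 minus vehicle, ESC minus vehicle and ESC minus IWP2. Pou5f1, Nanog and Utf1 lie right of 0 in all 3 comparisons and Lin28a left of 0, the interval of Sall4 between ESCs and vehicle spans 0, and Lin28b has the widest intervals.

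Lin28a and Lin28b moved in opposite directions with IWP2. Lin28a, on chromosome 4, had signals of 7.01, 6.97 and 7.04 in ESCs, of 8.3, 8.17 and 8.44 in EpiSCs with IWP2, and of 8.91, 8.85 and 8.64 in EpiSCs with vehicle. Its groups lay in the reverse order of Nanog, without overlap. It was 1.41-fold lower with IWP2 than with vehicle (-0.49 ± 0.086, adjusted p = 0.00167), 3.46-fold lower in ESCs than with vehicle (-1.79 ± 0.086, adjusted p = 3.88e-08) and 2.45-fold lower in ESCs than with IWP2 (-1.29 ± 0.086, adjusted p = 4.17e-07). The second, dimmer probe set of Lin28a gave differences of the same sign. It was called between ESCs and vehicle (-0.43, adjusted p = 0.00243), and not between IWP2 and vehicle (-0.24, adjusted p = 0.0751) or between ESCs and IWP2 (-0.18, adjusted p = 0.115).

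Lin28b, on chromosome 10, had signals of 2.48, 2.75 and 2.55 in ESCs, of 4.88, 5.18 and 5.96 in EpiSCs with IWP2, and of 3.5, 2.94 and 3.18 in EpiSCs with vehicle. The IWP2 arrays alone lay above 3.72, and they spread over more than 1 on the log2 scale, which was the widest spread within a group among the 8 genes. Lin28b was 4.38-fold higher with IWP2 than with vehicle (2.13 ± 0.245, adjusted p = 0.000128), a size that 0.857% of all genes exceeded. It had 1 probe set, and its mean of 5.34 with IWP2 was close to the median of all values, 5.24. ESCs were 6.72-fold lower than IWP2 (-2.75 ± 0.245, adjusted p = 3.98e-06). Because the ESC and vehicle arrays were near the floor, these differences are better read as lower limits of their size. With an offset of 32 added to the linear signals they were 0.83 and -0.95, both still called. ESCs were also below vehicle (-0.62 ± 0.245, 95% confidence interval -1.16 to -0.07, adjusted p = 0.0473), a call between signals that are both near the floor, and it was lost without any 1 of the 3 ESC arrays, without array 2 of the IWP2 group and without array 1 or 3 of the vehicle group (-0.47 to -0.70). It was also lost with the offset of 32 (-0.12, adjusted p = 0.434) and with median centring (-0.59, adjusted p = 0.054), and Lin28b was not tested with the filter on low signal.

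Within an array, the difference Lin28b minus Lin28a averaged -2.96 ± 0.478 with IWP2 and -5.59 ± 0.272 with vehicle (SD, n = 3 each), a difference of 2.63 between the groups. Lin28b was near the floor with vehicle, and with an offset of 32 the difference was 1.28. The 3 arrays of each group did not overlap, and the exact two-sided permutation test gave p = 0.1, the smallest it can give with 3 arrays against 3. The difference Sall4 minus Sall1 averaged 1.74 ± 0.088 with IWP2 and 1.54 ± 0.081 with vehicle, a difference of 0.2 with the same exact p = 0.1. With the mean of all probe sets of each gene this difference was -0.04, so its direction depends on the probe sets. This permutation test cannot reach 0.05 with 3 arrays against 3, and the levels of different probe sets are not comparable with each other.

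**Figure D3:**
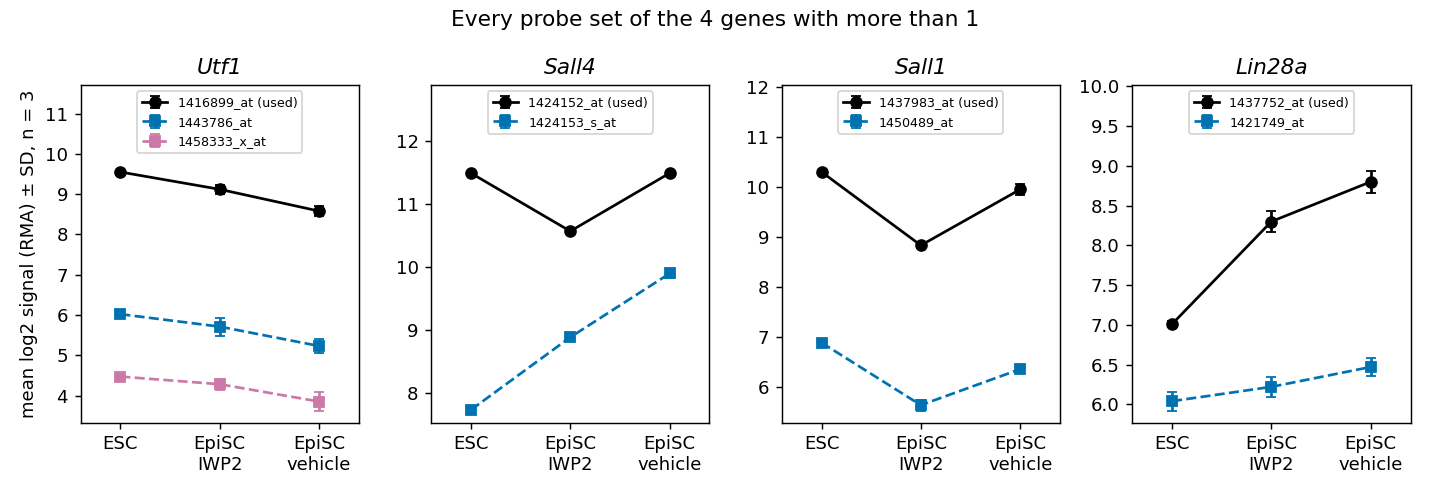
Mean log2 signal ± SD of 3 arrays (y axis, a range of its own in each panel) in each group (x axis) for every probe set of Utf1, Sall4, Sall1 and Lin28a; black circles are the probe sets used and the lines only join the groups. The probe sets of Utf1, Sall1 and Lin28a order the groups alike, while those of Sall4 differ in ESCs.

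Genes around Lin28 and let-7 were examined as 2 lists. Of 15 measured genes reported as let-7 targets, 0 were called higher with IWP2 than with vehicle, 7 were lower and 8 passed no threshold. Of all genes 16.6% were higher and 16.8% lower. The median of the targets was -0.18, against 0.03 for all genes. The largest of these differences were those of Ccnd2, which encodes cyclin D2 (-2, adjusted p = 1.05e-08), and of the growth regulator Myc (-1.72, adjusted p = 2.37e-06). Hmga2, a chromatin protein and the best known target, was not called (-0.17, adjusted p = 0.168). Neither let-7 nor Lin28 protein was measured, and whether let-7 had a part in these differences was not tested.

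Between ESCs and vehicle 4 of the 15 targets were higher, where 38.7% of all genes were, and 8 lower, where 27.9% were. The median was -0.23, against 0.12. Mycn (1.23, adjusted p = 8.93e-07) and Ccnd1, cyclin D1 (0.65, adjusted p = 5.44e-05), were higher, and Hmga2 (-2.79, adjusted p = 1.55e-09) and Ccnd2 (-1.67, adjusted p = 3.73e-09) were lower. Between ESCs and IWP2 7 were higher, where 35.2% of all genes were, and 6 lower, where 26.9% were. The median was 0.02, against 0.1. There Mycn (1.9) and Ccnd1 (1.25) were again higher, and Hmga2 (-2.62) and the small GTPase Nras (-1.31) were lower.

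Of 11 genes that process microRNAs or degrade let-7 precursors, 4 were higher, 2 lower and 5 not called with IWP2. Of all genes 16.6% were higher and 16.8% lower. The median of the 11 was 0.08, against 0.03. The Argonaute genes Ago1 (0.52, adjusted p = 6.1e-05) and Ago2 (0.25, adjusted p = 0.00738) were higher. Dgcr8, the partner of Drosha (-0.58, adjusted p = 0.00141), and Tarbp2, a partner of Dicer (-0.5, adjusted p = 0.0026), were lower. Between ESCs and vehicle 3 were higher, where 38.7% of all genes were, and 5 lower, where 27.9% were. The median was 0.03, against 0.12. Dicer1 (0.55, adjusted p = 4.81e-05) and Tarbp2 (0.42, adjusted p = 0.00287) were among the higher ones, and Prkra, another partner of Dicer (-1.77, adjusted p = 2.28e-08), and Ago1 (-0.42, adjusted p = 6.78e-05) among the lower. Between ESCs and IWP2 4 were higher, where 35.2% of all genes were, and 5 lower, where 26.9% were. The median was -0.13, against 0.1, with Dgcr8 (1.01) and Prkra (-2.11) at the ends of the range. The uridylyltransferases Tut4 and Tut7, which tag let-7 precursors held by Lin28a, and the nuclease Dis3l2, which degrades them, were not called with IWP2.

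**Figure D4:**
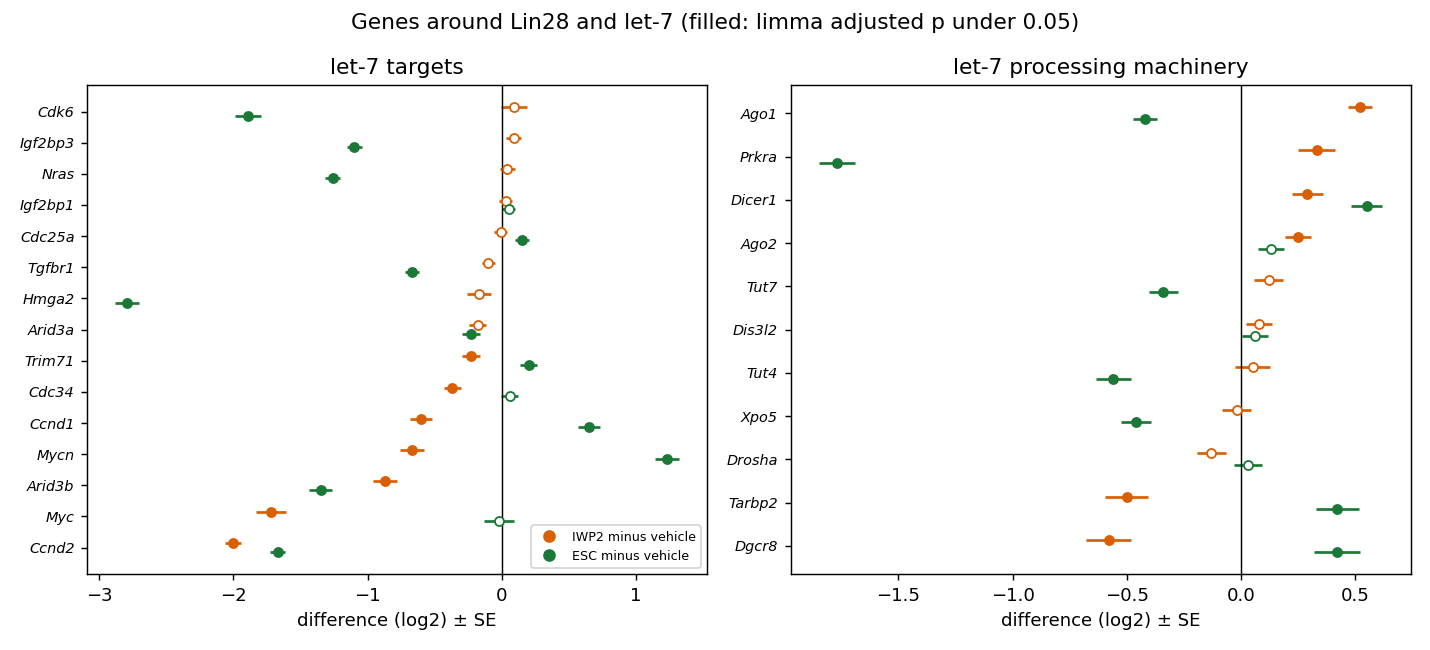
Log2 differences ± SE from limma (x axis) for 15 genes reported as let-7 targets and 11 genes of microRNA processing (y axis, in the order of the IWP2 difference); filled points have an adjusted p under 0.05. No target lies right of 0 as a filled IWP2 point, and for ESC minus vehicle Hmga2 is furthest left among the targets and Prkra among the processing genes.

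Partners of Oct4 and Nanog in the network were more often called lower than higher with IWP2. Of 17 measured partners 2 were called higher than with vehicle, where 16.6% of all genes were, 7 were lower, where 16.8% were, and 8 passed no threshold. Their median difference was -0.1, against 0.03 for all genes. Tcf7l1, a repressor of the network that Wnt signalling relieves, was higher (0.45, adjusted p = 0.00025), and Prdm14 was called at signals of 2.54 with IWP2 and 2.39 with vehicle, both near the floor. Klf5 (-1.15, adjusted p = 9.89e-06) and Tfcp2l1 (-0.7, adjusted p = 2.26e-05), transcription factors of the naive state, were lower. Sox2, which binds DNA with Oct4, was also among the lower ones (-0.2, adjusted p = 0.042), opposite in direction to Pou5f1 and Nanog. In ESCs 15 of the 17 were higher than with vehicle and 15 higher than with IWP2, where 38.7% and 35.2% of all genes were. The medians were 1.98 and 2.18, against 0.12 and 0.1. Prdm14 (6.68 and 6.53) and Tfcp2l1 (5.73 and 6.43) had the smallest p-values, the differences of Prdm14 being against signals near the floor. Tdgf1, a Nodal co-receptor, was lower in ESCs than with vehicle (-0.24, adjusted p = 0.0149), and Tcf7l1 was lower in ESCs than with IWP2 (-0.5, adjusted p = 2.48e-05).

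Of 6 measured genes known as joint targets of Oct4 and Sox2 in mouse ESCs, 2 were higher and 2 lower with IWP2. Of all genes 16.6% were higher and 16.8% lower. The median of the 6 was -0.02, against 0.03. The growth factor Fgf4 was higher (1.89, adjusted p = 9.63e-09), as was Fbxo15, an F-box protein (0.93, adjusted p = 1.11e-05). Lefty1, an inhibitor of Nodal (-0.2, adjusted p = 0.0277), and Jarid2, a partner of the Polycomb complex (-0.18, adjusted p = 0.0213), were lower. In ESCs 5 of the 6 were higher than with vehicle and 5 higher than with IWP2, where 38.7% and 35.2% of all genes were. The medians were 4.37 and 3.29, against 0.12 and 0.1. Zfp42 (10.44 and 10.51) and Gdf3 (5.35 and 5.33) had the smallest p-values. Zfp42 was near the floor with vehicle (2.54) and with IWP2 (2.47), so its differences are better read as lower limits of their size. Lefty1 was lower in both comparisons (-3.19 and -2.99).

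Of 13 subunits of the NuRD complex, which Sall4 and Sall1 bind, 3 were higher and 6 lower with IWP2. Of all genes 16.6% were higher and 16.8% lower. The median of the 13 was -0.12, against 0.03. Hdac2, a deacetylase (0.28, adjusted p = 0.00198), and Mta1 (0.3, adjusted p = 0.00581) were higher, and the methyl-CpG-binding domain genes Mbd2 (-0.73, adjusted p = 0.000115) and Mbd3 (-0.41, adjusted p = 0.00424) were lower. In ESCs 4 were higher than with vehicle, where 38.7% of all genes were, and 4 lower, where 27.9% were. Against IWP2, 6 were higher, where 35.2% of all genes were, and 5 lower, where 26.9% were. The medians were 0.01 and 0.08, against 0.12 and 0.1 for all genes. Mta3 (1.67 and 1.43) and Mbd2 (1 and 1.73) were higher in both, and Mta1 (-0.92 and -1.22) and the remodeller Chd4 (-0.6 and -0.44) lower.

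Among 11 other Sall and POU domain genes, 2 were higher, 0 lower and 9 not called with IWP2. Of all genes 16.6% were higher and 16.8% lower. The median of the 11 was 0.14, against 0.03. The higher ones were Sall2 (0.57, adjusted p = 0.00121) and Pou6f1 (0.62, adjusted p = 0.000224). In ESCs 6 were higher than with vehicle, where 38.7% of all genes were, and 3 lower, where 27.9% were. Against IWP2, 3 were higher, where 35.2% of all genes were, and 3 lower, where 26.9% were. The medians were 0.25 and 0.04, against 0.12 and 0.1 for all genes. Sall3 (2.04 and 2.21) and Pou4f1 (1.32 and 1.28) were higher in both, and Sall2 (-3.67 and -4.24) and Pou3f1, a POU factor of primed cells (-5.22 and -5.01), were lower.

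Markers of differentiating cell types moved in the same comparison as the 8 genes, where 16.6% of all genes were higher with IWP2 and 16.8% lower. Of 7 endoderm markers 6 were lower with IWP2 and 0 higher, with a median of -4.05, and their summed signal was 7.24 to 7.37 on the log2 scale with IWP2 and 12.22 to 12.29 with vehicle. The secreted signal Shh (-6.65) and the homeobox gene Hhex (-4.05), both at adjusted p = 2.54e-10, had the smallest p-values. Of 6 streak and mesoderm markers 4 were lower and 0 higher, with a median of -2.4 and summed signals of 7.23 to 7.41 with IWP2 and 10.81 to 11.28 with vehicle. Lhx1 (-6.98, adjusted p = 2.54e-10) and Gsc (-3.83, adjusted p = 1.09e-08), 2 homeobox genes, led these, and both were under 3.72 with IWP2. In bulk RNA fewer cells of a type and less RNA per cell cannot be told apart, and the part of these cells in the differences of the 8 genes was not tested.

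Other marker lists moved less with IWP2, where 16.6% of all genes were higher and 16.8% lower. Of 6 trophoblast markers 2 were lower and 0 higher (Krt7 by -3.19 and Gata3 by -2.03), with a median of -0.1 and summed signals of 6.86 to 7.02 with IWP2 and 8.09 to 8.29 with vehicle. Of 6 fibroblast and feeder markers 2 were higher (Thy1 by 0.72 and Dcn by 0.78) and 2 lower (Col3a1 by -2.3 and Postn by -1.75), with a median of -0.11 and sums of 7.61 to 7.87 with IWP2 and 7.9 to 8.35 with vehicle. Of 5 neural markers 1 was higher (Tubb3 by 0.73) and 1 lower (Neurod1 by -0.52), with a median of 0.14 and sums of 9.74 to 9.98 with IWP2 and 9.51 to 9.62 with vehicle. Of 7 naive state markers 0 were higher and 2 lower (Tfcp2l1 by -0.7 and Klf4 by -0.69), with a median of -0.07 and sums of 7.39 to 7.49 with IWP2 and 7.61 to 7.7 with vehicle. Of 6 primed state markers Sox4 was higher (0.32) and 3 were lower, among them Fgf5 (-2.48) and Cldn6 (-2.05), with a median of -0.4 and sums of 13.7 to 13.76 with IWP2 and 13.9 to 14.1 with vehicle.

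In ESCs the endoderm markers were lower than with vehicle for 6 of 7 genes (median -3.89, summed signals 7.58 to 7.74 in ESCs and 12.22 to 12.29 with vehicle) and the streak and mesoderm markers for 4 of 6 (median -2.07), with Kdr the 1 higher gene (0.47). Of 6 trophoblast markers 3 were higher and 2 lower than with vehicle (median 0.34), with Tfap2c, which ESCs also express, the largest difference (4.25). Of 6 fibroblast and feeder markers 1 was higher and 3 lower (median -0.42), and of 5 neural markers 2 were higher and 1 lower (median 0.18). Against IWP2, ESCs had 3 of 7 endoderm, 3 of 6 streak and mesoderm and 3 of 6 trophoblast markers higher and 0 of each lower, with medians of 0.25, 0.28 and 0.29. Of the fibroblast and neural markers 0 and 1 were higher there and 2 of each lower, with medians of -0.15 and 0.05. The 3 endoderm calls were Foxa2 (4.4 in ESCs and 4.04 with IWP2), Shh (4.65 and 4.09) and Hhex (6.12 and 5.61). With vehicle these 3 genes had 10.11, 10.75 and 9.66, so the calls lay far below those signals. The arrays of Foxa2 overlapped. Of the streak calls, Gsc (3.35 and 2.82) was near the floor in both groups. Of all genes 38.7% were higher and 27.9% lower in ESCs than with vehicle, and 35.2% and 26.9% than with IWP2. The part of these markers in the comparisons with ESCs was not tested.

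The nearest measured genes on each side of the 8 in the RefSeq gene table were examined as their genomic surroundings. Of all genes 33.5% were called between IWP2 and vehicle and 66.6% between ESCs and vehicle. Whether the 8 genes change together with their neighbours more than other genes do was not tested. Beside Sall1, the gene model Gm3134 was lower with IWP2 than with vehicle (-1, adjusted p = 0.000637) and higher in ESCs (0.94, adjusted p = 0.000289), while Cyld on the other side was higher with IWP2 (0.34, adjusted p = 0.00627). Beside Sall4, Atp9a was lower with IWP2 (-0.72, adjusted p = 0.00203) and so was Zfp64 (-0.21, adjusted p = 0.0305), and both were higher in ESCs than with vehicle (0.97 and 0.53). Beside Nanog, Slc2a3, a glucose transporter, was higher with IWP2 (0.43, adjusted p = 0.00127). Dppa3 on the other side of Nanog was not called with IWP2 (0.13, adjusted p = 0.502) and was higher in ESCs than with vehicle by 4.71 (adjusted p = 9.61e-10). Dhdds beside Lin28a was higher with IWP2 (0.2, adjusted p = 0.0385). The other neighbours of Lin28a and those of Pou5f1, Utf1, Zscan10 and Lin28b were not called with IWP2. Bves and Hace1, beside Lin28b, were not called in any of the 3 comparisons.

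For each of the 5 genes whose group means spanned at least 1 on the log2 scale, the 2 genes with the most similar pattern were taken, by the root mean square difference from it over the 9 arrays after centring, among 10175 genes above the median signal. Sall1 was closest to Bmi1, a Polycomb gene (0.042), which averaged 8.1 in ESCs, 6.7 with IWP2 and 7.8 with vehicle, and to Vangl1 (0.086). Nanog was closest to Akr1b8 (0.065), which averaged 7.56 in ESCs, 5.49 with IWP2 and 5.07 with vehicle, and to Nfatc2ip (0.114). Zscan10 was closest to Mak16 (0.056) and Heatr1 (0.07), and Lin28a to Tmem164 (0.065) and Mogs (0.101). The closest to Lin28b were Kcnq3 (0.319) and Igsf11 (0.323). This measure also counts the spread within groups, which was wide for Lin28b (SD 0.143 in ESCs, 0.561 with IWP2 and 0.282 with vehicle). Its larger values therefore cannot show whether fewer genes share its pattern than share those of the other 4. Pou5f1, Utf1 and Sall4 spanned less than 1 and were not searched.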

How the data were processed

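The authors deposited log2 values of 45101 probe sets, and per the submitters' processing notes RMA and limma were used, with no versions given. RMA quantile-normalizes the arrays, which hides any difference in the amount of RNA per cell, and the values come without detection calls. Microarrays have no read depth, and 3 arrays per group limit the precision (median standard error of a group difference 0.082). No batch could be examined, since scan dates were not used here.

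The deposited log2 values were analysed in R 4.3.3 with limma 3.58.1. Of the probe sets, 34945 had 1 symbol in the platform annotation, which gave 18193 genes, each read by its probe set with the highest mean. Group means were fitted to all 9 arrays with lmFit and eBayes (6 residual degrees of freedom, 9.58 after moderation), two-sided, with Benjamini-Hochberg adjustment. Other probe sets were fitted over the 34945. The script was tested on simulated data.

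The members and the lists were chosen with earlier results of these data known. Named genes are the 8 members, of each list and comparison up to 2 called genes with the smallest p in each direction, the 2 genes most like each member (gene models, Riken clones and probe sets ending in _x_at left out) and the nearest measured neighbours; other named genes were chosen after their values were seen. Listed genes without such a probe set were not analysed here. Alternatives were other probe sets, an offset, a filter, centring, a replicate block, a stricter threshold and leaving out each array.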

Additional observations from a re-analysis of the deposited data

How the results depend on the processing

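No result for Pou5f1, Nanog, Utf1, Zscan10, Sall1 or Lin28a changed its direction under the alternatives run, and with the probe sets used, or their mean, no call of theirs at an adjusted p of 0.05 was lost in the fits over all genes. Single dimmer probe sets of Lin28a and Utf1 missed the threshold. Sall4 between ESCs and IWP2 was reversed with the mean of its probe sets (-0.12, adjusted p = 0.044), and between ESCs and vehicle that mean was -1.08, which made 3 members lower there. Lin28b minus Lin28a differed by 2.63 (IWP2 minus vehicle), 1.17 (ESC minus vehicle) and -1.45 (ESC minus IWP2) with the probe sets used. With the mean of probe sets the last 2 became 0.49 and -2.01. With an offset of 32 added to linear signals the 3 became 1.28, 1.45 and 0.17, the last of them reversed. Sall4 minus Sall1 differed by 0.2 (IWP2 minus vehicle), -0.35 (ESC minus vehicle) and -0.55 (ESC minus IWP2) with the probe sets used. With the mean of probe sets these became -0.04, which is reversed, -1.52 and -1.48. Members lower in ESCs than with vehicle numbered 1 in place of 2 with the filter on low signal, the offset, median centring, the replicate block and an adjusted p under 0.01, and 1 to 2 when 1 array was left out, because Lin28b lost its call or was not tested. Members lower in ESCs than with IWP2 numbered 1 with the filter. With the filter, which tests fewer genes, 4193 of all genes were higher in ESCs than with vehicle and 4550 lower, against 7045 and 5078 without it. Against IWP2 these counts were 4322 and 4511, in place of 6400 and 4898. The excess of higher over lower genes in ESCs was thus not seen with the filter. The lower quartile of each array was 3.79 to 3.8 in ESCs, 3.68 to 3.69 with IWP2 and 3.66 to 3.68 with vehicle. At an adjusted p under 0.01, 1847 genes were higher and 2039 lower with IWP2. Same-numbered replicates did not deviate together (r -0.056 to 0.043, against -0.099 to 0.067 for other numbers), so no pairing by number was seen. This check cannot tell whether same-numbered cultures shared a day or a line. With the replicate block Lin28b between ESCs and vehicle had an adjusted p of 0.0587, and all 8 members were called between IWP2 and vehicle, as were 2878 genes higher and 2876 lower. For single genes, 442 alternative values kept direction and call, 9 lost the call (all of them Lin28b between ESCs and vehicle), 1 gained it and 1 was reversed. Limits are the 3 arrays per group, the floor under Lin28b and the disagreement between the Sall4 probe sets.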
